A study of Mus musculus with 24 samples.

Results

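The transcripts of coenzyme Q synthesis were followed in splenic Tconv CD4+ cells, taken as the rows of the count table that carry the symbols *Pdss1*, *Pdss2*, *Coq2*, *Coq3*, *Coq4*, *Coq5*, *Coq6*, *Coq7*, *Coq8a* and *Coq9*. These are 10 of 55414 genes listed, and all 10 were matched by gene identifier. The cells were CD4+ CD25- cells isolated with magnetic beads from the spleens of conplastic mice, all of which had the C57BL/6J nuclear genome. Groups differed in the mitochondrial DNA, which was that of C57BL/6J (mtDNA B6, labelled WT) or that of the NZB strain (mtDNA NZB), and in state, which was resting or activated for 72 h with beads carrying CD3 and CD28 antibodies, with IL-2. Each haplotype and state had 6 libraries, 24 in all. The sources used here name no engineered allele in these mice. Age and sex are given only for the study as a whole, in which most experiments used males of 2 to 3 months. The labels do not tie libraries to separate mice, so the p-values measure the spread between these libraries. The comparison asked whether activation of Tconv cells changes the coenzyme Q synthesis transcripts and whether the mitochondrial haplotype alters that response.

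Coenzyme Q is a lipid of the inner mitochondrial membrane that carries electrons from complex I, complex II and several other dehydrogenases to complex III, and its reduced form also acts as an antioxidant. It is built from a benzoquinone ring and a long isoprenoid tail. All of the enzymes are encoded in the nucleus, so the members are the same alleles in both haplotypes, and they act in the mitochondrial matrix, several of them as one complex. T cells that leave the resting state enlarge their mitochondria and raise their respiratory capacity. The members fall by role into the tail makers *Pdss1* and *Pdss2*, the joining enzyme *Coq2*, the ring-modifying enzymes *Coq3*, *Coq4*, *Coq5*, *Coq6* and *Coq7*, and the helper proteins *Coq8a* and *Coq9*.

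Counts were of unique molecular identifiers (UMI), each of which tags 1 captured RNA molecule, and came from the 3′ end of each transcript. Libraries held from 51409 to 6449395 UMI, with a median of 3187196. Resting mtDNA NZB replicate 2 was the smallest and the next smallest library held 641467. Replicate 2 gave 12 UMI over all members and had none for *Pdss2*, *Coq3* and *Coq4*. 1 UMI in it equals 16.9 CPM (UMI per 1000000 UMI of the tested genes, scaled by the TMM method), against at most 1.44 CPM in any other library, so its values are left out of the ranges below, although it entered every fit unless stated. *Il2ra*, the interleukin 2 receptor chain that marks activated T cells, lay between 1.38 and 5.71 CPM in the resting libraries and between 42.0 and 180 CPM in the activated ones, with no overlap between the states. The summed level of 6 T cell markers was 2834 to 5014 CPM at rest and 3523 to 4623 CPM after activation. Markers of other cells also moved with state. All 8 granulocyte, 5 myeloid and 6 erythroid markers fell on activation in both haplotypes (adjusted p at most 0.05), and both CD8 markers rose. The granulocyte sum was 644 to 7434 CPM in resting and 8.26 to 78.8 CPM in activated mtDNA B6 cells, and 406.5 to 20320 CPM in resting and 7.43 to 178 CPM in activated mtDNA NZB cells. The part of such cells in the members' changes was not tested. Bulk RNA cannot separate fewer cells of one kind from less RNA per cell. The 4 B cell markers did not pass the test, 1 of 6 T cell markers rose and 1 fell in each haplotype, 1 NK marker that could be tested fell, and 1 platelet marker that could be tested rose. Of the 2 Treg markers, 1 fell in mtDNA B6 cells and 1 rose in mtDNA NZB cells.

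On the mouse assembly GRCm39, *Pdss1* lies at chr2:22785492-22830278 on the plus strand and *Pdss2* at chr10:43097429-43344225, also on the plus strand. *Coq2* lies at chr5:100802559-100823006 (minus strand), *Coq3* at chr4:21879624-21913961 (plus), *Coq4* at chr2:29677505-29687947 (plus), *Coq5* at chr5:115417725-115436585 (plus) and *Coq6* at chr12:84408394-84420767 (plus). *Coq7* lies at chr7:118108882-118132579 (minus), *Coq8a* at chr1:179992803-180029294 (minus) and *Coq9* at chr8:95564949-95581525 (plus). The reads counted are those of the last 1000 bases of each transcript, largely its 3′ UTR. There, 3 members overlap exons of a protein-coding gene on the other strand, *Pdss1* with *Abi1* over 196 bases, *Coq5* with *Dynll1* over 283 bases and *Coq8a* with *Cdc42bpa* over 368 bases. Whether the counting used strand is not given in the sources used here, so the counts of these 3 could hold reads of the partner. Promoter windows from RefSeq (GRCm38.p6, 250 bases before to 50 bases after the start site) were found for 9 members, all but *Coq5*. The E-box CACGTG, bound by MYC and related factors, was searched because MYC rises in activated T cells, and it was present in the window of 1 of 9 members, against 8.09% of 27025 genes. That member is *Coq4*, and the 30 bases around the match, which begins 56 bases before the start site, are shown 5′ to 3′ with the E-box in capitals (chr2:29787425-29787454, plus strand, GRCm38.p6).
Coq4: cggcaaacgaacCACGTGacctcactccac
The palindromic core of the site of NRF1, a factor of mitochondrial gene expression, occurred in 0 of 9 members and in 1.07% of genes. The letters CCGGAAGT, a core of ETS factor sites, occurred in 0 of 9 members and in 4.31% of genes. Both strands were read for each motif, and these are matches of letters and not tested sites.

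After activation *Coq7* and *Pdss1* were called higher and *Coq8a* lower in both haplotypes. The calls of *Pdss1* in both haplotypes and of *Coq8a* with mtDNA B6 were not made in every fit. Most of the other members had no change that passed the test. The study's methods give no culture time for the resting cells, so activation and time in culture cannot be told apart. In mtDNA B6 cells 2 of 9 tested members rose and 1 fell, where 22.4% of all 10566 genes tested rose and 24.5% fell. In mtDNA NZB cells 4 of 9 rose (*Coq7*, *Pdss1*, *Coq4* and *Coq5*) and 1 fell, where 25.2% of all genes rose and 28.4% fell. Calls were made by edgeR's quasi-likelihood test and needed an adjusted p (Benjamini-Hochberg, over all genes tested) no higher than 0.05. *Coq3* was removed by the filter on low counts. With a log2 change of at least 1 in size also asked for, the members called were 0 higher and 1 lower in mtDNA B6 cells (all genes 7.06% and 10.6%) and 2 higher and 1 lower in mtDNA NZB cells (all genes 9.46% and 14%). The median log2 change of the 9 members was -0.10 in mtDNA B6 cells, beside -0.03 over all genes tested, and 0.29 in mtDNA NZB cells, beside -0.06. The log2 change was above 0 in 4 of 9 members with mtDNA B6 and in 8 of 9 with mtDNA NZB, beside 5104 and 4976 of the 10566 genes tested.

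**Figure D1:**
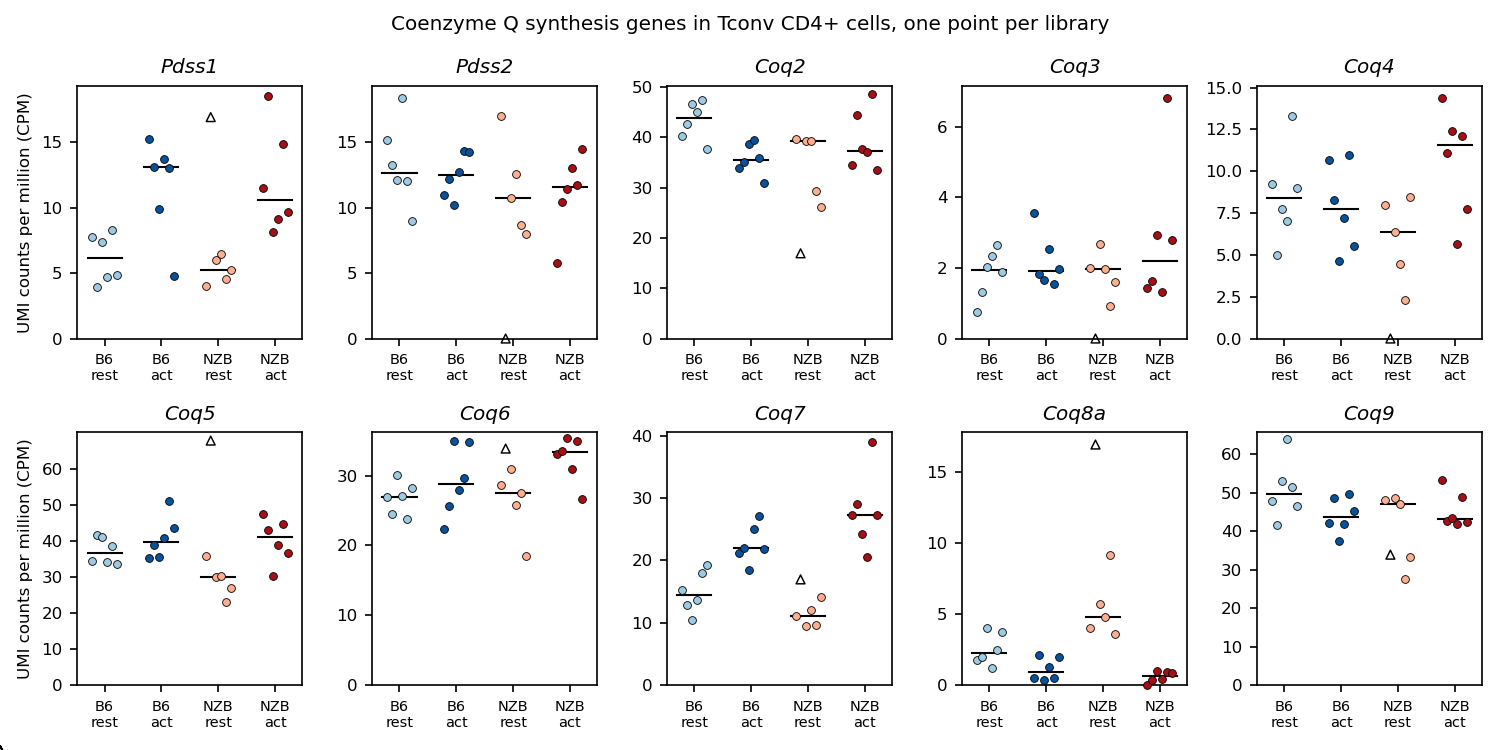
CPM (linear axes from 0) of each member in each library, by haplotype and state, with the line at the group median; the open triangle is resting mtDNA NZB replicate 2, which held 51409 UMI and is left out of the median. *Coq7* and *Pdss1* lie higher and *Coq8a* lower in activated mtDNA NZB cells with no overlap with the other 5 resting libraries.

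*Coq7*, the hydroxylase of the penultimate step of the pathway, gave the change that held best. In resting mtDNA B6 cells it lay between 10.5 and 19.2 CPM (median 14.5), and in activated mtDNA B6 cells between 18.5 and 27.1 CPM (median 21.9). The ranges overlapped only in the highest resting library, which at 19.2 CPM lay above the lowest activated library at 18.5 CPM. In resting mtDNA NZB cells the 5 libraries gave 11.0, 9.40, 12.03, 9.62 and 14.1 CPM, and replicate 2 had 1 UMI. After activation the mtDNA NZB libraries lay between 20.5 and 39.0 CPM (median 27.3), all above the 5 resting ones. The rise was 1.51-fold in mtDNA B6 cells (log2 change 0.60, SE 0.16, adjusted p = 0.00365, edgeR) and 2.47-fold in mtDNA NZB cells (log2 change 1.31, SE 0.18, adjusted p = 1.25e-06). It was called in both haplotypes in each of 12 other fits and each of 24 fits that left out 1 library, at an adjusted p of up to 0.05 and with no fold cut-off.

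*Pdss1* and *Pdss2* encode the subunits of the synthase that makes the isoprenoid tail, and only the first passed the test. *Pdss1* lay between 3.97 and 8.33 CPM (median 6.16) in resting mtDNA B6 cells and between 4.75 and 15.3 CPM (median 13.1) after activation. Activated mtDNA B6 replicate 6, at 4.75 CPM from 12 UMI, lay within the resting range and the other 5 activated libraries, from 9.91 CPM up, lay above it. In resting mtDNA NZB cells *Pdss1* was at 4.01, 6.04, 6.44, 4.58 and 5.22 CPM, with 1 UMI in replicate 2, and after activation at 8.18 to 18.6 CPM (median 10.6), with no overlap. The rise of *Pdss1* was 1.87-fold in mtDNA B6 cells (log2 change 0.90, SE 0.26, adjusted p = 0.00540, edgeR) and 2.21-fold in mtDNA NZB cells (log2 change 1.15, SE 0.29, adjusted p = 0.00150). The call was lost in 1 of 12 other fits with mtDNA B6, given below, and in 2 of 12 with mtDNA NZB, both with a block by the label number (log2 change 0.77 and 0.71, adjusted p = 0.0577 and 0.129). *Pdss2* stayed between 9.03 and 18.4 CPM in resting and 10.2 and 14.3 CPM in activated mtDNA B6 cells. In mtDNA NZB cells *Pdss2* lay between 8.03 and 17.0 CPM at rest and 5.75 and 14.5 CPM after activation. Its log2 change was -0.10 in mtDNA B6 cells (95% interval -0.51 to 0.31, adjusted p = 0.714) and 0.04 in mtDNA NZB cells (adjusted p = 0.894), so the subunits did not share a call.

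*Coq8a*, an atypical kinase that supports the assembly of the synthesis complex, was the member that fell. It passed the filter on low counts mainly through resting mtDNA NZB cells, where it was highest. Its fall in that haplotype is thus measured from the group that let it be tested. It was not tested with a stricter filter or with only the mtDNA B6 groups. It was a low transcript, with 3 to 14 UMI per library in resting and 1 to 7 UMI in activated mtDNA B6 cells, or 1.18 to 4.05 CPM (median 2.23) and 0.331 to 2.14 CPM (median 0.892). The 5 resting mtDNA NZB libraries held 12, 17, 17, 20 and 9 UMI, or 4.01, 5.71, 4.76, 9.17 and 3.61 CPM, and replicate 2 held 1 UMI. The activated mtDNA NZB libraries held 0, 1, 3, 1, 3 and 6 UMI, none above 0.982 CPM and all below the 5 resting libraries, whereas the mtDNA B6 groups overlapped. The level after activation was 0.442 times that at rest in mtDNA B6 cells (log2 change -1.18, SE 0.41, adjusted p = 0.0205, edgeR) and 0.135 times in mtDNA NZB cells (log2 change -2.88, SE 0.44, adjusted p = 5.97e-06). The fall in mtDNA B6 cells did not pass the test when activated replicate 1, 3 or 5 or resting replicate 3 or 6 of that haplotype was left out (adjusted p up to 0.068), and it passed in 5 of 10 other fits that tested it (adjusted p up to 0.0915, with DESeq2). Granulocyte, myeloid and erythroid markers fell with *Coq8a*, and their part in its fall was not tested. In the resting libraries with the highest granulocyte sums, mtDNA B6 replicate 6 (7434 CPM) and mtDNA NZB replicate 6 (20320 CPM), *Coq8a* was at 3.76 and 3.61 CPM. In those with the lowest sums, mtDNA B6 replicate 2 (644 CPM) and mtDNA NZB replicate 5 (406.5 CPM), it was at 1.99 and 9.17 CPM.

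**Figure D2:**
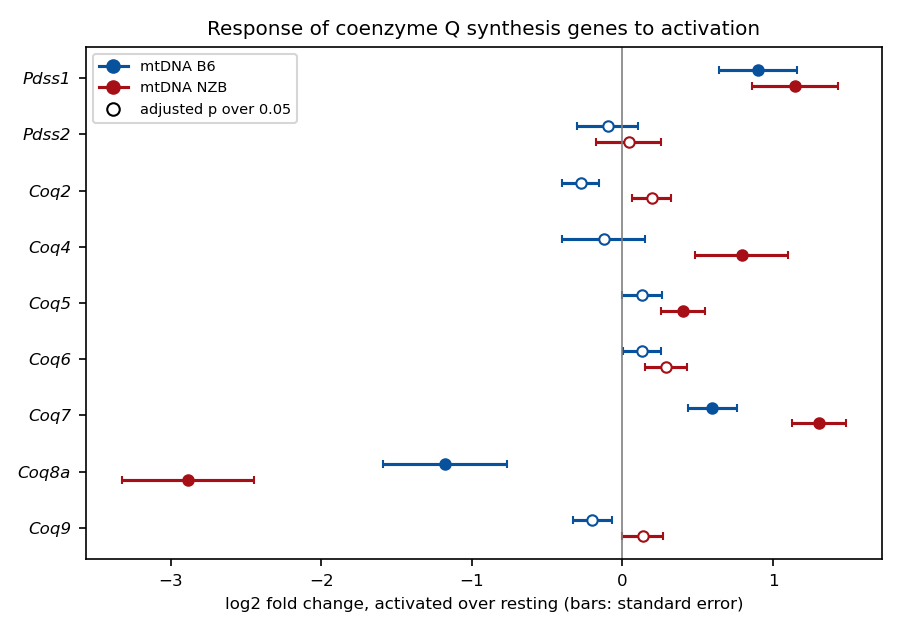
Log2 fold change of activated over resting cells for the 9 tested members in mtDNA B6 and mtDNA NZB cells, with the standard error as bars and filled points for an adjusted p of at most 0.05. *Coq7* and *Pdss1* are filled to the right of 0 and *Coq8a* to the left in both haplotypes, with *Coq4* and *Coq5* filled for mtDNA NZB only; the difference between responses did not pass the test for either gene.

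*Coq4*, which acts on the ring carbon that loses its carboxyl group, was called only in mtDNA NZB cells. Its level there was 2.29 to 8.43 CPM (median 6.38) in the 5 resting libraries and 5.66 to 14.4 CPM (median 11.6) after activation, with 4 of 6 activated libraries above every resting one. In mtDNA B6 cells it was 4.97 to 13.3 CPM at rest and 4.63 to 11.0 CPM after activation. The change of *Coq4* was 1.73-fold in mtDNA NZB cells (log2 change 0.79, SE 0.31, adjusted p = 0.0331, edgeR) and the log2 change was -0.12 in mtDNA B6 cells (SE 0.28, adjusted p = 0.738). The mtDNA NZB call rested on few counts, since *Coq4* gave 85 UMI in all 6 resting libraries together. The rise did not pass the test without activated mtDNA NZB replicate 1, 2, 3 or 5 or resting mtDNA NZB replicate 4 or 5 (adjusted p up to 0.0926), or with DESeq2 (adjusted p = 0.0847). It was called in 6 of 12 other fits, DESeq2 among the 12 (adjusted p up to 0.221).

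*Coq5*, the methyltransferase that adds a methyl group to a ring carbon, lay between 22.9 and 35.7 CPM (median 29.9) in the 5 resting and between 30.1 and 47.5 CPM (median 40.9) in the activated mtDNA NZB libraries. Replicate 2 held 4 UMI. Resting mtDNA B6 cells gave 33.5 to 41.7 CPM (median 36.5) and activated ones 35.1 to 50.9 CPM (median 39.8). *Coq5* rose 1.32-fold in mtDNA NZB cells (log2 change 0.40, SE 0.14, adjusted p = 0.0210, edgeR), to a level within the range of the activated mtDNA B6 cells apart from 1 library, and its log2 change in mtDNA B6 cells was 0.13 (SE 0.13, adjusted p = 0.441). Without resting mtDNA NZB replicate 5, the lowest of that group, the rise did not pass the test (adjusted p = 0.0602), nor with DESeq2 (adjusted p = 0.0576). It was called in 6 of 12 other fits, DESeq2 among the 12 (adjusted p up to 0.249).

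The remaining members gave no call in either haplotype over all libraries, though *Coq2* with mtDNA B6 was called lower in 5 of 12 other fits (adjusted p = 0.0122 to 0.469). *Coq2*, which joins the tail to the ring precursor, lay between 37.6 and 47.5 CPM (median 43.9) in resting and 30.9 and 39.4 CPM (median 35.5) in activated mtDNA B6 cells, a log2 change of -0.28 (SE 0.12, adjusted p = 0.0603, edgeR). That value passed the test over the 21 libraries whose group means match the study's mean counts (log2 change -0.28, adjusted p = 0.0322), where 26.6% of all genes were called lower. That set lacks 3 mtDNA NZB libraries, replicates 2 and 6 at rest and replicate 6 after activation, and leaving out resting replicate 6 alone also gave the call (adjusted p = 0.0417). In mtDNA NZB cells *Coq2* lay between 26.1 and 39.7 CPM at rest and 33.6 and 48.6 CPM after activation (log2 change 0.19, SE 0.13, adjusted p = 0.208). *Coq6*, a ring hydroxylase that uses flavin, gave log2 changes of 0.13 in mtDNA B6 cells (SE 0.13, adjusted p = 0.427) and 0.29 in mtDNA NZB cells (SE 0.14, adjusted p = 0.0776). Its mtDNA NZB value passed the test in 5 of 24 fits that left out 1 library, among them the fit without resting mtDNA NZB replicate 2. *Coq6* levels ran from 22.4 to 35.0 CPM in mtDNA B6 cells and from 18.5 to 35.3 CPM in mtDNA NZB cells. *Coq9*, the lipid-binding partner of *Coq7*, gave log2 changes of -0.20 in mtDNA B6 cells (SE 0.13, adjusted p = 0.207) and 0.13 in mtDNA NZB cells (SE 0.14, adjusted p = 0.500). *Coq9* therefore did not pass the test where *Coq7* did, with levels of 37.3 to 63.8 CPM in mtDNA B6 cells and 27.5 to 53.2 CPM in mtDNA NZB cells. *Coq3*, the methyltransferase that acts on ring oxygens, held 1 to 22 UMI per library, 0 in resting mtDNA NZB replicate 2, and stayed untested. Its medians over the libraries were 1.95 CPM in resting and 1.91 CPM in activated mtDNA B6 cells, and 1.96 CPM in resting and 2.21 CPM in activated mtDNA NZB cells, with all groups overlapping.

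Counted by library, 0 of 10 members separated resting from activated mtDNA B6 cells without overlap, where 15.4% of all tested genes did so upwards and 16.4% downwards. In mtDNA NZB cells without resting replicate 2, 2 members separated upwards (*Coq7* and *Pdss1*) and 1 downwards (*Coq8a*), where 14.1% and 13.9% of all tested genes did so. The haplotypes were separated by 0 members in either state, where 1.53% of genes lay higher and 1.05% lower in resting mtDNA NZB cells without overlap, and 0.0284% higher and 0.0284% lower in activated ones.

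At rest, 8 of 9 tested members lay lower in mtDNA NZB than in mtDNA B6 cells, whereas 5160 of all 10566 genes tested lay higher. However, 0 of 9 members passed the test, where 2.76% of all genes did. At an unadjusted p under 0.05 there were 5 members (*Coq2*, *Coq5*, *Coq7* and *Coq9* lower and *Coq8a* higher), where 20.8% of all genes passed that mark. DESeq2 also called 0 members. The log2 difference, mtDNA NZB minus mtDNA B6, was -0.40 for *Coq7* (95% interval -0.77 to -0.03, adjusted p = 0.198, edgeR), -0.33 for *Coq2* (-0.59 to -0.07, adjusted p = 0.140), -0.32 for *Coq5* (-0.61 to -0.02, adjusted p = 0.205) and -0.31 for *Coq9* (-0.58 to -0.03, adjusted p = 0.195). *Coq4* differed by -0.56 (-1.18 to 0.07, adjusted p = 0.298), *Pdss1* by -0.22 (-0.82 to 0.38), *Pdss2* by -0.23 (-0.67 to 0.21) and *Coq6* by -0.01 (-0.29 to 0.27). The difference of *Coq8a* was the only positive one, 1.12 (0.38 to 1.86, adjusted p = 0.0783). *Coq8a* passed the filter on low counts mainly through this same resting mtDNA NZB group. For *Coq2*, resting mtDNA NZB replicates 1, 3 and 4 lay at 39.7, 39.3 and 39.2 CPM, within the mtDNA B6 range, and replicates 5 and 6 at 29.3 and 26.1 CPM, below it. For *Coq9* the same 3 replicates lay at 48.1, 48.7 and 47.0 CPM and replicates 5 and 6 at 27.5 and 33.3 CPM. Both genes were lowest in these 2 libraries, and for *Coq2* the other 3 also lay below 5 of the 6 mtDNA B6 libraries. Of all resting libraries, replicate 6 had the highest granulocyte sum (20320 CPM) and replicate 5 the lowest (406.5 CPM). Replicate 6 also had the lowest summed level of the T cell markers, 2834 CPM. The part of other cells in these differences was not tested. For *Coq7* all 5 libraries, at 9.40 to 14.1 CPM, lay in the lower part of the mtDNA B6 range or below it.

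After activation 0 of 9 members differed between haplotypes, where 0% of all genes did (edgeR, 327 of 10566 genes or 3.09% at an unadjusted p under 0.05, none of them a member, and 0 members by DESeq2). The log2 difference of *Coq7* was 0.30 (95% interval -0.02 to 0.63), that of *Pdss1* was 0.03 (-0.49 to 0.54) and that of *Coq8a* was -0.59 (-1.63 to 0.46). *Coq4* differed by 0.36 (-0.22 to 0.94), *Coq2* by 0.15 (-0.11 to 0.40), *Coq6* by 0.15 (-0.12 to 0.41) and *Coq5* by -0.04 (-0.32 to 0.23). The values of *Pdss2* and *Coq9* were -0.09 and 0.03. The intervals leave room for differences of up to 0.63 in *Coq7*, 0.54 in *Pdss1* and 0.94 in *Coq4* on the log2 scale, and down to -1.63 in *Coq8a*.

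The test of the response itself, the change in mtDNA NZB cells minus that in mtDNA B6 cells, called 0 of 9 members, and 0% of all genes (edgeR, 1512 of 10566 genes or 14.3% at an unadjusted p under 0.05, and 0 members by DESeq2). At the unadjusted mark there were 4 members. The response of *Coq7* was larger by 0.71 in mtDNA NZB cells (95% interval 0.21 to 1.20, unadjusted p = 0.00663, adjusted p = 0.222, edgeR), and over the 21 libraries by 0.81 (adjusted p = 0.0937, where 1.04% of all genes were called). *Coq2* gave 0.47 (0.11 to 0.84, adjusted p = 0.240), *Coq4* gave 0.92 (0.06 to 1.77, adjusted p = 0.320) and *Coq8a* gave -1.70 (-3.00 to -0.41, adjusted p = 0.238). For *Pdss1* the responses differed by 0.25 (-0.54 to 1.03, adjusted p = 0.824), an interval that reaches well to both sides of 0. The others were *Coq9* at 0.33, *Coq5* at 0.27, *Coq6* at 0.16 and *Pdss2* at 0.14. The haplotype and response differences share libraries, since a lower resting level also enlarges a response. They are not separate observations. Among the library sets described under the methods, which were spread unevenly over groups, a fit with the set as a term gave activation changes of *Coq7* of 0.61 and 1.36 and of *Pdss1* of 0.90 and 1.13 in mtDNA B6 and mtDNA NZB cells (adjusted p = 0.0241, 2.37e-06, 0.0439 and 0.00418 in that order). With the 21 libraries and the set as a term, *Pdss1* in mtDNA B6 cells was at 0.81 and not called (adjusted p = 0.0880).

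**Figure D3:**
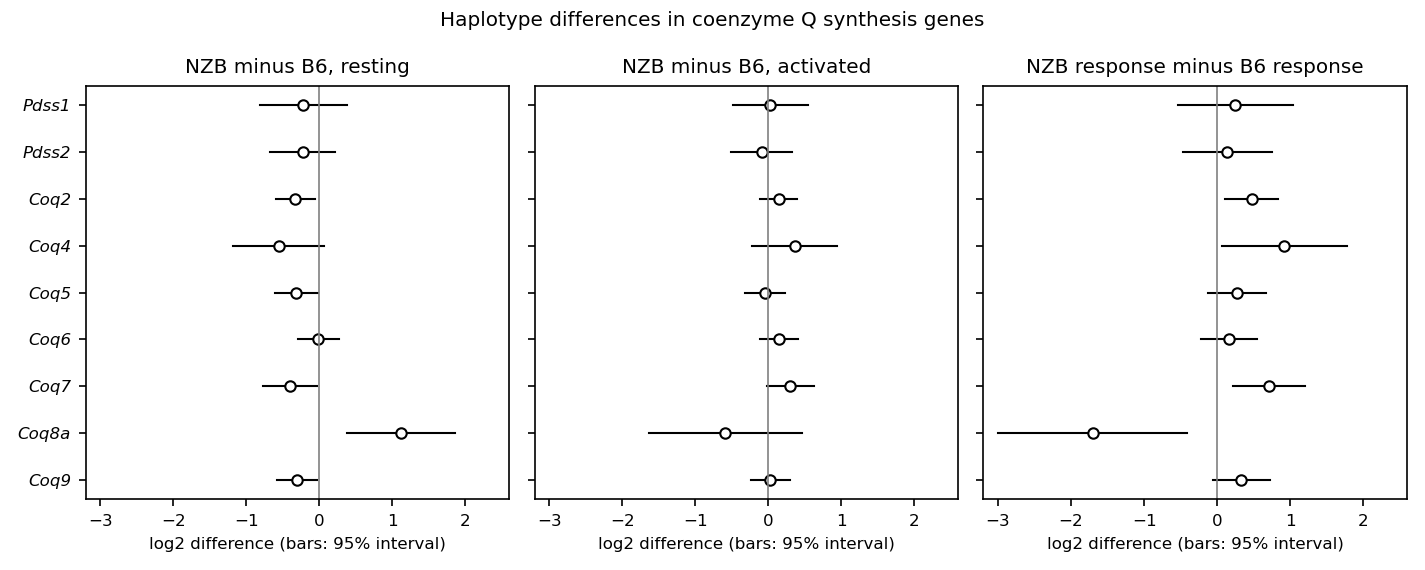
Log2 differences between haplotypes at rest, after activation, and between their responses to activation, for the 9 tested members with 95% intervals. All points are open since 0 members passed the adjusted p, and *Coq8a* lies opposite to most members at rest (1.12) and in the response (-1.70).

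The members varied loosely together. Over the 23 libraries other than resting mtDNA NZB replicate 2, the 36 pairs of tested members had a median Pearson r of 0.19 in log2 CPM, from -0.77 (*Coq7* and *Coq8a*) to 0.75 (*Coq7* and *Pdss1*). These libraries share state and haplotype. Once each group's mean was taken off, *Coq7* and *Pdss1* had an r of 0.32 and *Coq7* and *Coq8a* an r of 0.01. The mean of resting mtDNA NZB cells included replicate 2, so its other libraries kept a shared offset. The values after this step can therefore still hold part of a group difference. *Coq2* and *Coq9* kept most of theirs, 0.62 before and 0.49 after. The subunits *Pdss1* and *Pdss2* had an r of -0.17 before and -0.31 after. Over the same libraries the genes with a pattern most like *Coq7* were *Aunip* (r = 0.95), *Pask* (0.94) and *Psmd3* (0.94), and those most like *Pdss1* were *Rtca* (0.91), *Thyn1* (0.88) and *Psmd14* (0.87). The values for these most alike genes were not computed with the group means taken off, so they also carry the split between resting and activated cells.

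Most tested genes of the isoprenoid list were called higher after activation. Of the isoprenoid list, the mevalonate pathway that supplies the tail, 7 of 8 tested genes were called higher and 1 lower with mtDNA B6, and 6 higher and 1 lower with mtDNA NZB (median log2 change 1.06 and 0.76, *Idi1* untested), where 22.4% of all genes rose and 24.5% fell with mtDNA B6 and 25.2% rose and 28.4% fell with mtDNA NZB. *Fdps*, which makes the farnesyl diphosphate on which the tail is built, rose by 1.23 in mtDNA B6 and 1.45 in mtDNA NZB cells on the log2 scale (SE 0.14 and 0.15, adjusted p = 1.33e-07 and 2.02e-08, edgeR). *Hmgcs1*, a synthase of the mevalonate pathway, rose by 1.30 and 0.60 (adjusted p = 8.30e-06 and 0.0160) and *Acat2*, which makes acetoacetyl-CoA, by 1.38 and 0.90. The kinases *Mvk* (1.04 and 0.62) and *Pmvk* (1.08 and 1.22) and the decarboxylase *Mvd* (0.86 and 1.16) rose in both haplotypes. The member that fell was *Ggps1*, which makes geranylgeranyl diphosphate, at -0.78 and -0.97 (adjusted p = 0.00220 and 0.000412), a gene named after its values were seen.

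Of the other coenzyme Q factors, 2 of 6 tested genes were higher after activation and 1 lower with mtDNA B6, and 1 was higher and 1 lower with mtDNA NZB (*Hpdl* and *Fdx2* untested), few genes set against the shares of all genes given above (22.4% and 24.5%, then 25.2% and 28.4%). *Coq10b*, a lipid-binding protein thought to carry coenzyme Q to the respiratory chain, fell from 37.7 to 60.2 CPM at rest to 5.15 to 10.1 CPM in mtDNA B6 cells, and from 52.4 to 216 CPM to 6.97 to 14.4 CPM in mtDNA NZB cells. The groups did not overlap, where 16.4% of all tested genes separated downwards with mtDNA B6 and 13.9% with mtDNA NZB. The log2 changes of *Coq10b* were -2.67 (SE 0.28, adjusted p = 3.95e-08, edgeR) and -3.26 (SE 0.29, adjusted p = 2.04e-09). The granulocyte, myeloid and erythroid markers fell alongside *Coq10b*, and their part in its fall was not tested. *Stard7*, which carries lipid to mitochondria, rose by 0.79 and 0.71 and was named after its values were seen. The matrix phosphatase *Pptc7* rose by 0.69 in mtDNA B6 cells (adjusted p = 0.00297) and was at -0.07 in mtDNA NZB cells (adjusted p = 0.794). *Coq8b*, the paralog of *Coq8a*, was at -0.08 and 0.02 (adjusted p = 0.779 and 0.955), and is named as that paralog and not by its values.

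The list of enzymes that pass electrons to coenzyme Q held no complex I subunit. With mtDNA B6, 3 of its 11 tested genes were called higher and 3 lower, close to the shares of all genes (22.4% and 24.5%). With mtDNA NZB, 4 were called higher and 2 lower, beside 25.2% and 28.4% (*Aifm2* untested). *Sdhb*, the iron-sulphur subunit of complex II, rose by 1.16 and 1.24 on the log2 scale (SE 0.11 and 0.12, adjusted p = 9.40e-09 and 4.99e-09, edgeR). *Sqor*, which oxidises sulphide, fell by 1.53 and 1.38 (adjusted p = 0.00240 and 0.00825), and *Chdh*, choline dehydrogenase, fell by 4.28 and 2.55 (adjusted p = 3.87e-09 and 3.76e-06). *Chdh* was at 5.30 to 14.5 CPM in resting and 0 to 0.848 CPM in activated mtDNA B6 cells, and at 4.58 to 8.73 CPM and 0.310 to 2.18 CPM in mtDNA NZB cells. The granulocyte, myeloid and erythroid markers fell alongside *Sqor* and *Chdh*, and their part in these changes was not tested.

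**Figure D4:**
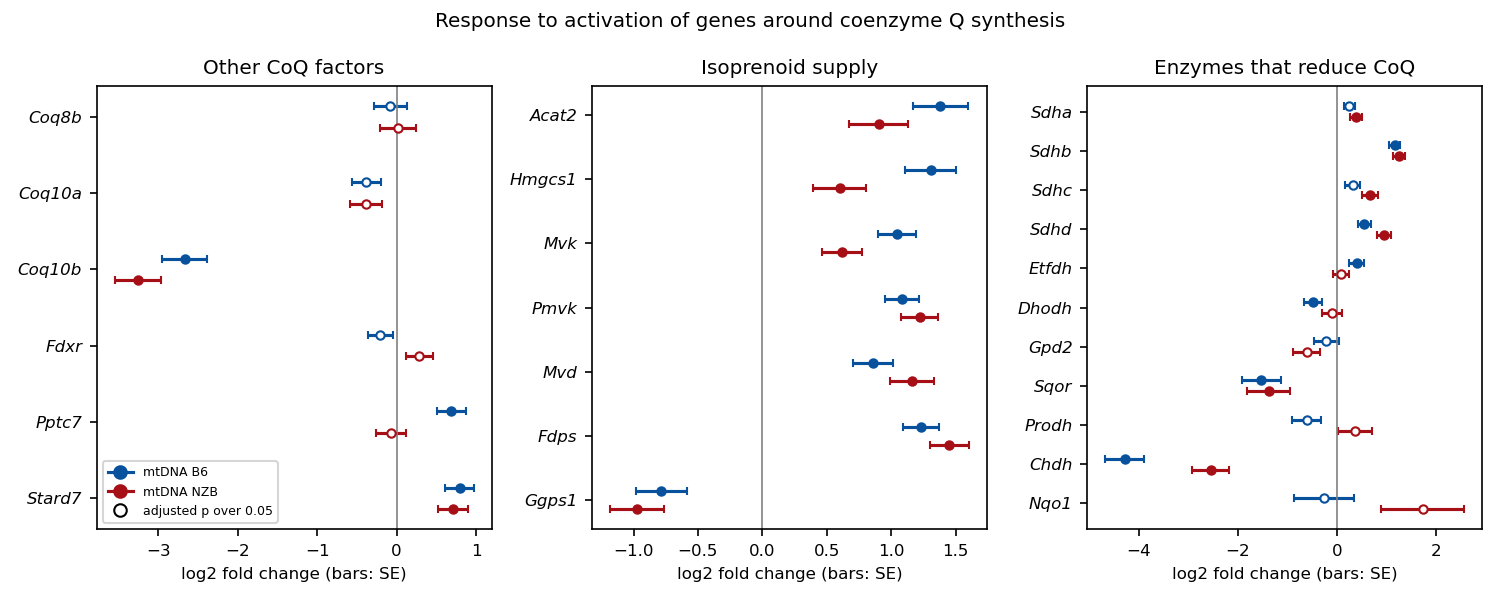
Log2 fold change of activated over resting cells for tested genes of 3 lists around the pathway, in mtDNA B6 and mtDNA NZB cells, with the standard error as bars and filled points for an adjusted p of at most 0.05. Most isoprenoid genes lie to the right of 0 with *Ggps1* to the left, and *Coq10b*, *Sqor* and *Chdh* lie far to the left in both haplotypes.

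In these lists 3 genes differed between haplotypes at rest, all higher in mtDNA NZB cells, where 1.90% of all genes were called higher. They were 2 of 6 tested genes of the other coenzyme Q factors, 1 of 8 of the isoprenoid list and 0 of 11 of the enzymes. *Coq10b* differed by 1.02 (SE 0.26, adjusted p = 0.0378, edgeR), *Pptc7* by 0.79 (SE 0.19, adjusted p = 0.0326) and *Hmgcs1* by 0.75 (SE 0.21, adjusted p = 0.0469). For *Pptc7* the mtDNA B6 libraries lay between 51.4 and 59.2 CPM, resting mtDNA NZB replicates 1, 3 and 4 at 55.1, 66.2 and 65.5 CPM, and replicates 5 and 6 at 155 and 139 CPM. For *Coq10b*, replicates 1, 3 and 4 lay at 52.4, 66.8 and 67.2 CPM and replicates 5 and 6 at 216 and 102 CPM. For *Hmgcs1* the mtDNA B6 libraries lay between 45.1 and 63.1 CPM. Its resting mtDNA NZB replicates 1, 3 and 4 lay at 54.4, 72.9 and 56.0 CPM, and replicates 5 and 6 at 175 and 108 CPM. For these 3 genes the excess was thus greatest in the replicates in which *Coq2* and *Coq9* were lowest. Replicate 6 was also the resting library with the highest granulocyte sum (20320 CPM). Replicate 5, the highest library for all 3 genes, had the lowest (406.5 CPM). The part of other cells was not tested. Over the 21 libraries *Coq10b* was called (0.97, adjusted p = 0.0384), *Pptc7* and *Hmgcs1* were not (0.60 and 0.69, adjusted p = 0.0591 and 0.0660), and *Prodh*, proline dehydrogenase, was called lower (-1.23, adjusted p = 0.0275), where 2.24% of all genes were called higher and 3.88% lower. No gene of the 3 lists passed the test after activation or in the difference between responses.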

How the data were processed

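RNA of resting and activated Tconv CD4+ cells of both haplotypes was measured in 24 libraries by a bulk form of MARS-seq. The labels give 30 ng of input RNA and the study's methods 60 ng. According to those methods, cutadapt removed adapters and homopolymer stretches, sequences shorter than 30 bases were discarded, STAR aligned the others to 1000-base 3′ UTR regions of GRCm39 (Ensembl 106), and htseq-count assigned them to genes. UMI duplicates were collapsed and saturation was corrected. The authors deposited the corrected counts as unscaled whole numbers. A further deposited table holds larger counts and served as an alternative. 1 column of that table matched no sample and was not used. Treg libraries were not used here.

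Counts were scaled by TMM and filtered by filterByExpr in edgeR 4.0.16 (R 4.3.3), which left 10566 genes, and the 4 groups were fitted together with the quasi-likelihood test and Benjamini-Hochberg adjustment. CPM is UMI per 1000000 UMI of tested genes after TMM. The standard error is the log2 change divided by the square root of F, and intervals are 95% intervals from it. Intervals and counts cover the spread of these libraries and counting error only. Pearson's r used log2 CPM with a prior count of 2. Gene models and overlaps came from GENCODE vM39 on GRCm39, where 24820 of 25030 identifiers with a count were found, and promoter sequence came from RefSeq. The scripts were tested on simulated data.

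All members are named. Genes of the other lists are named where called in both activation contrasts with a log2 change of at least 1 in one, or in a haplotype or response contrast, and exceptions are stated. 1 gene of the isoprenoid list is counted but not reported here. Members and lists were chosen with earlier results of these data known. Marker lists covered T, CD8 T, B, myeloid, granulocyte, erythroid, NK, platelet and Treg cells and activation (2 of 3 activation markers rose in each haplotype).

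Total counts in the second table per UMI fell into 3 sets of 8 libraries, at 1.88 to 1.96, 2.11 to 2.24 and 2.68 to 2.80. In the order resting and activated mtDNA B6, then resting and activated mtDNA NZB, the first set had 0, 5, 1 and 2 libraries, the next 4, 1, 1 and 2, and the last 2, 0, 4 and 2. No set holds 2 or more libraries of every group. The 21 libraries used as an alternative match the study's supplementary mean counts within 0.475%. Alternatives were DESeq2 1.42.0, median-of-ratios size factors, no filter, a stricter filter (10 counts in 12 libraries), the second table, 21 libraries, replicate blocks, the library set, only the compared groups, a log2 change of at least 1, and leaving out each library. 2 combinations with the 21 libraries were added after the data were seen.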

Additional observations from a re-analysis of the deposited data

Results flagged for a closer look

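In 3 of 40 groups of libraries (10 members in 4 groups) the highest value stood apart from the other 5 by more than Dixon's 95% mark, a mark that chance passes in about 1 of 20 groups. Of these, 2 are in resting mtDNA NZB replicate 2, the library of 51409 UMI. *Pdss1* was at 16.94 CPM there from 1 UMI, beside 6.436 CPM in the next library, and *Coq5* at 67.75 CPM from 4 UMI, beside 35.71 CPM. The other is *Coq3* in activated mtDNA NZB replicate 5, at 6.812 CPM from 22 UMI, beside 2.945 CPM in the next library.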

How the results depend on the processing

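In every fit that tested them, *Coq7* was called higher and *Coq8a* lower on activation of mtDNA NZB cells and *Coq7* was called higher in mtDNA B6 cells, except that *Coq7* in mtDNA B6 cells (0.60) is under a log2 change of 1. The number of members called on activation of mtDNA B6 cells (3) became 1 when a log2 change of at least 1 was asked for and was 2 to 4 in the other fits. In mtDNA NZB cells the number (5) became 3 with DESeq2, 3 with the second table, 3 with only the compared groups and 3 with a log2 change of at least 1, and ran from 3 to 6 in fits without 1 library (3 without resting mtDNA NZB replicate 5). The calls of *Coq4* and *Coq5* were lost in most of these, and that of *Coq8a* in mtDNA B6 cells with DESeq2, no filter, the second table or the label block (adjusted p = 0.0553, and 0.0529 over the 21 libraries), while the stricter filter and the fit of only the compared groups did not test it. The cause was not tested. The number of members that differed between haplotypes or in response was 0 under every setting that gave a value.

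The number in the labels links 1 resting to 1 activated library in 5 cases with mtDNA B6 and 4 with mtDNA NZB. The sources used here do not say what it stands for. Deviations of same-numbered libraries from their group means correlated at -0.075 to 0.253 with mtDNA B6 and at -0.158 to 0.003 with mtDNA NZB. The mean of resting mtDNA NZB cells included replicate 2, which can blur the mtDNA NZB values. The correlations thus neither establish a pairing nor exclude one. With a replicate block by label number, 2 members were called in mtDNA B6 and 2 in mtDNA NZB cells (also 2 in mtDNA NZB cells over the 21 libraries), and with one by title number 3 and 4. *Pdss1* in mtDNA NZB cells lost its call under the label block (0.7695, adjusted p = 0.0577, and 0.7105, adjusted p = 0.129, over the 21 libraries). The label number is nested in haplotype, so this block gave no haplotype difference.

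Values that turned in sign were all uncalled. Over the 21 libraries these were *Pdss2* in mtDNA NZB activation (-0.1647) and response (-0.0696) and *Coq6* at rest (0.0818). With the library set they were *Coq4* in mtDNA B6 activation (0.0575), *Pdss2* in mtDNA NZB activation (-0.0751) and *Coq6* at rest (0.0097), and with both *Pdss2* in mtDNA NZB activation (-0.2223), at rest (0.0232) and in response (-0.2116) and *Coq6* at rest (0.0751). With the label block *Pdss1* turned in response (-0.1288), and with the block over 21 libraries *Pdss1* (-0.1936) and *Pdss2* (-0.1351) in response and *Pdss2* (-0.248), *Coq2* (-0.1034) and *Coq9* (-0.0795) in mtDNA NZB activation. Between activated haplotypes *Pdss1* turned with no filter (-0.0064) and only the compared groups (-0.0127), *Coq9* likewise (-0.0022 and -0.0039), and *Pdss2* with the second table (0.0159). Without 1 library, ranges that crossed 0 were *Coq4* (-0.2402 to 0.063) and *Pdss2* (-0.1428 to 0.0074) in mtDNA B6 activation, *Pdss2* (-0.0517 to 0.2319) in mtDNA NZB activation, *Coq6* (-0.0747 to 0.0862) at rest, and *Coq5* (-0.0817 to 0.0346), *Coq9* (-0.0152 to 0.0654) and *Pdss1* (-0.1534 to 0.1236) between activated haplotypes. Depth limits *Coq8a* and *Coq3* most, at 0 to 20 and 0 to 22 UMI per library.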
